A study of Mus musculus with 4 samples.

Results

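The carbonic anhydrase genes Car1, Car2, Car3, Car4, Car5a, Car8, Car9, Car12, Car13 and Car14 were followed through food deprivation in maternal and fetal mouse liver. These 10 genes have 13 probes, out of 28786 gene names and 41174 gene probes on the array. They were taken by name from the scanner files. The group was chosen by its measured log2 ratios of FD over control, above all the maternal ratio of Car3, the lowest of all measured genes, so these ratios are given as a description.

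RNA came from liver of C57BL/6J mice, an inbred strain with no added allele or transgene in the labels. The groups were mothers under food deprivation (FD), control mothers with chow and water ad libitum, FD fetuses and control fetuses. Each condition was 1 pool of total RNA, made per the design text from 5 to 10 biological replicates, and was measured on 2 arrays of opposite dye. How long food was withheld, and the day of gestation, are not stated in the labels used here. Labels number the arrays by dye order, and the same pools were taken to be on both. Their spread is then technical, each condition counts as 1 sample, and no p-value is given. Pooling also means that the spread between animals is unknown, and bulk tissue means that fewer cells of a type and less RNA per cell cannot be told apart.

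Carbonic anhydrases interconvert carbon dioxide and bicarbonate with release of a proton. The family divides by place: Car1, Car2, Car3 and Car13 work in the cytosol, Car5a in mitochondria, and Car4, Car9, Car12 and Car14 act on the cell surface. Car8 keeps the fold of the family but lacks the catalytic activity. In hepatocytes, mitochondrial Car5a is known for supplying bicarbonate to carbamoyl phosphate synthetase in urea formation and to pyruvate carboxylase in glucose synthesis. Car3 is a slow enzyme that is abundant in muscle, fat and liver and has also been tied to protection against oxidative damage. Car1 and Car2 are the classic enzymes of red cells, and the fetal liver is a site of red cell formation.

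Because the enzymes resemble each other, the array's ability to tell them apart rests on the probe letters. The first 30 bases of the 60-base probes behind the main results are shown in lower case, 5′ to 3′, as the scanner files give them.
Car3 probe 1: acatgcaaccgcagtgccttttgacatgat
Car3 probe 2: ggctttctgaccaccgagagacaacgtttt
Car1: attcacaaattttgacccatccagtctgct
Car2: cctctcatccgttgtgcttactaacaaaat
Car5a: tacctacccagctgagctccatctgttcat
Car14: ggctgagcctttggccttcaaagctgtgga
Car8 probe 1: tggcatatctgaatgtatggcttctaagga
Car8 probe 2: atctgattcagaatagaaacattactgtgt
Over the full length of all 13 probes, the longest run that any pair shared was 8 bases on the same strand and 9 bases on opposite strands, among 78 pairs. The probes were not compared with the transcripts of the other genes. Whether a probe also reads another gene was therefore not examined. The Car3 probes lie at chr3:14893376-14893435 and chr3:14886326-14886385 on the plus strand of build mm7, per the scanner files, with starts 7050 bases apart. They therefore read separate stretches of the same gene.

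Per channel, over 8 channels, the scanner software placed 53.2% to 69.7% of gene spots well above background, against at most 1.31% of negative control spots. Saturated spots numbered 0. The SD per array of a log2 ratio over all measured genes was 0.16 in mothers and 0.15 in fetuses. Of the 10 genes, 7 were measured in mothers and 8 in fetuses, where measured means well above background in at least 1 condition on both arrays. Car4 and Car12 were not well above background in any channel of any array. Car13 was measured in fetuses but passed on only 1 of 2 arrays in each maternal condition. In both tissues, every channel of the remaining 7 genes was well above background.

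In maternal liver, 3 of the 7 measured carbonic anhydrase genes fell under food deprivation and none rose. Calls needed a mean of 2-fold or more, with 1.5-fold or more and the same sign on either array. By that rule 3.44% of the 16141 measured maternal genes were called, 1.88% of them lower and 1.56% higher. The 3 genes were Car3, Car8 and mitochondrial Car5a. The median log2 ratio of the 7 genes was -0.82, against -0.01 over all measured genes, and it was -0.68 over the 6 genes other than Car3. Since the genes were proposed with these maternal values in view, the count is a description.

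In fetal liver only Car3 fell among the 8 measured genes, and none rose. The rule called 0.731% of the 18051 measured fetal genes, 0.266% lower and 0.465% higher. The fetal median of the 8 genes was 0.04 on the log2 scale, against 0.00 over all measured genes. Without Car3, the other 7 ranged from -0.52 to 0.52. Thus Car3 was the single carbonic anhydrase called lower in both tissues, and it was 1 of 21 genes lower in both among 15607 measured in both. They make up 21 of the 303 genes lower in mothers and 21 of the 48 lower in fetuses.

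**Figure D1:**
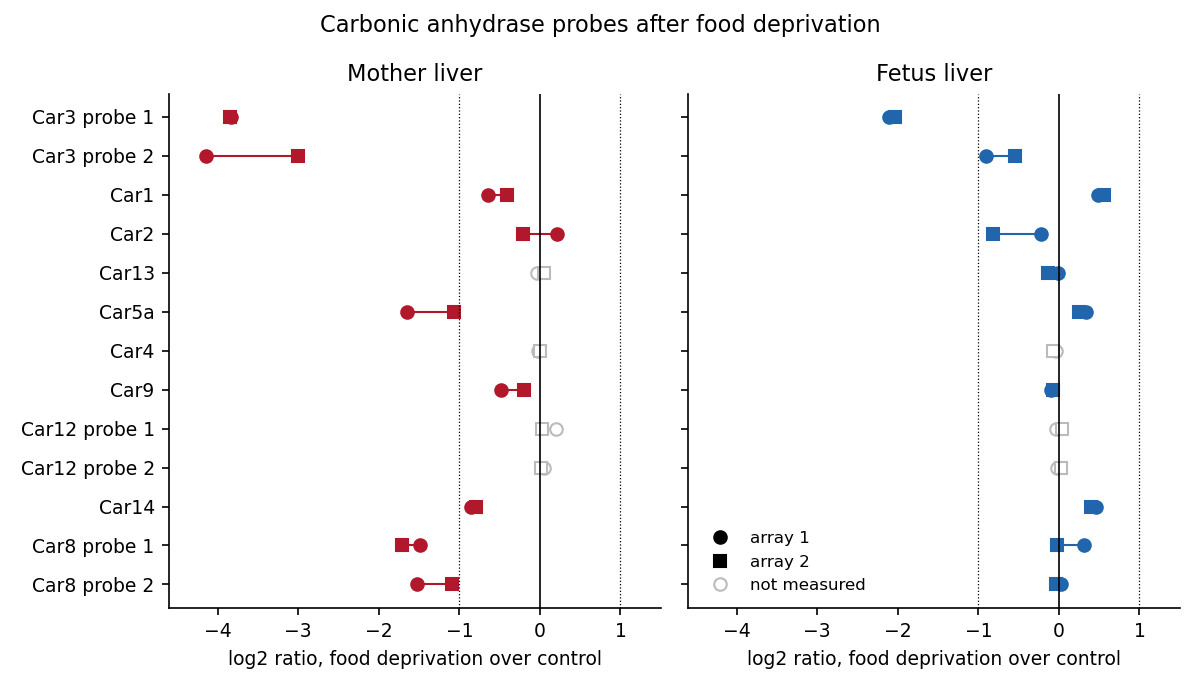
The plot gives the log2 ratio of food deprivation over control for each probe of the 10 genes, with maternal liver left and fetal liver right, a circle for array 1 and a square for array 2. Open grey symbols are probes that were not measured, dotted lines mark a 2-fold change, and Car3 probe 1 lies at -3.84 and -3.85 in mothers and at -2.11 and -2.04 in fetuses.

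Car3, the slow cytosolic enzyme, is a single gene of 8844 bases at chr3:14863538-14872381 on GRCm38.p6. Its brighter probe had normalised log2 levels of 11.89 and 11.31 in FD mothers, against 15.74 and 15.16 in control mothers. The maternal log2 ratios were -3.84 and -3.85 on the 2 arrays, a 14.4-fold fall. It was the lowest of 16141 measured genes. The next were Idi1, an enzyme of isoprenoid synthesis (7.94-fold lower), and Msmo1, an enzyme of cholesterol synthesis (7.31-fold lower). Counted from the lowest, Car3 had rank 3 with the scanner software's own ratios and rank 2 with the deposited series table.

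The fetal change ran the same way at lower expression. The same probe read 7.85 and 8.08 in FD fetuses, against 9.95 and 10.12 in control fetuses. Fetal log2 ratios were -2.11 and -2.04, a 4.21-fold fall, which gave Car3 rank 4 from the lowest of 18051 genes. Fetal Car3 had rank 10 with the scanner software's own ratios and with the deposited series table. FD values of this probe lay below both control values in each tissue, though the 2 arrays are technical readings of the same pools.

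Mother minus fetus, the log2 ratios of this probe differed by -1.74 and -1.81 on arrays of equal dye orientation, a mean of -1.77 or 3.42-fold. The SD per array of this difference over all genes was 0.13. Control mothers also started from a level 5.79 and 5.04 higher on the log2 scale than control fetuses, or 42.6-fold. By probe 1, FD mothers held 12.5-fold more Car3 signal than FD fetuses and 2.96-fold more than control fetuses. The second probe, described next, gave 1.97-fold and 1.20-fold for the same comparisons.

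The second Car3 probe was dim, above only 30.1% of measured probes in fetuses and 71.6% in mothers, and gave a call in mothers alone. In mothers it read 7.20 and 8.18 under FD, against 11.34 and 11.18 in controls, and its log2 ratios of -4.15 and -3.00 gave an 11.9-fold fall. These maternal ratios were -4.15 and -3.78 with stained local background reset, and -4.22 and -3.86 without background subtraction. In fetuses it read 6.53 and 6.89 under FD, against 7.42 and 7.43 in controls. The fetal ratios of -0.90 and -0.54 were below 0 on both arrays but averaged only 1.65-fold and were not called. Its brightness above local background was 40.1 and 22.4 in FD fetuses and 58.8 and 189 in control fetuses, of the size of the offset of 50 added before taking logs. With an offset of 0 and nothing else changed, its fetal ratios were -1.81 and -0.81, a mean of -1.31. With the scanner software's ratios, which also differ in background and dye normalisation, the dim probe gave a fetal mean of -2.18 and the bright probe -2.51, and both were called. The maternal means were then -5.07 for the dim probe and -3.91 for the bright one.

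**Figure D2:**
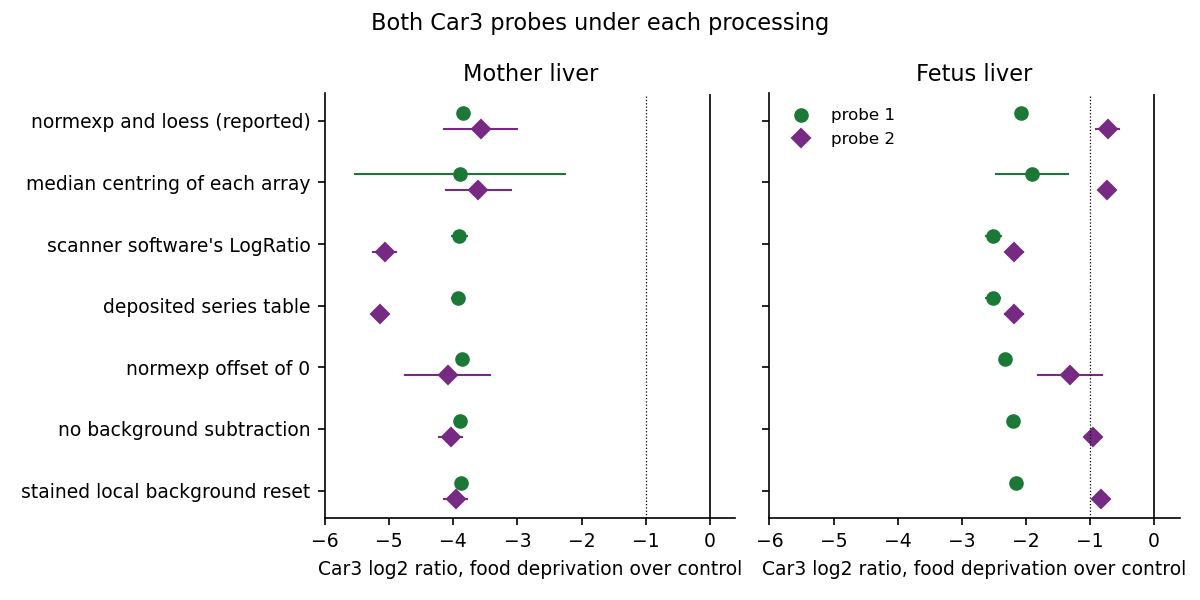
The plot gives the mean log2 ratio of food deprivation over control for both Car3 probes under each processing, with lines joining the 2 arrays, maternal liver left and fetal liver right. Probe 1 stays between -3.93 and -3.85 in mothers, while in fetuses probe 2 lies at -0.72 as reported and at -2.18 with the scanner software's ratios.

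The 3 neighbours of Car3 on chromosome 3 were not called in any tissue where they were measured. Car13, Car1, Car3 and Car2 lie in this order within 259044 bases on GRCm38.p6, with no gene listed between Car1 and Car3 or between Car3 and Car2, whose gap is 13887 bases. In mothers the mean log2 ratios were -0.53 for Car1 and 0.00 for Car2, and in fetuses they were 0.52 for Car1, -0.52 for Car2 and -0.07 for Car13.

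Car1, a red cell enzyme, read 7.53 and 7.81 in FD mothers, against 8.18 and 8.21 in control mothers (log2 ratios -0.65 and -0.41). The fetal readings were 9.71 and 9.64 under FD and 9.22 and 9.09 in controls (log2 ratios 0.48 and 0.56). Neither tissue passed the 2-fold rule. The maternal ratio of Car1 was -1.04, and called lower, with the scanner software's ratios. Mother minus fetus, the ratios differed by -1.13 and -0.96, a call under the same rule by their mean of -1.05 but not on array 2 alone.

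Car2, the fast cytosolic enzyme of red cells and many other cells, was not called, and its arrays disagreed. FD mothers read 8.79 and 8.70, against 8.58 and 8.91 in control mothers. Fetal readings were 14.08 and 13.92 under FD and 14.30 and 14.74 in controls, with log2 ratios of -0.22 and -0.82, the widest gap (0.60) among the fetal values at each gene's brightest probe. The maternal ratios of 0.21 and -0.21 differed in sign.

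Of the 26 listed names of red cell markers, 23 were found on the array. All 23 were measured in fetuses, and none was called. Their median log2 ratio was -0.29, and their summed linear level was 150000 to 174000 in FD fetuses and 183000 to 188000 in control fetuses. In mothers 9 were measured, none was called, the median was -0.11, and the sums were 19800 to 21700 under FD and 21000 to 24100 in controls. Hba-a1 and Alas2 were well above background in all 4 groups. The part of these markers in the Car1 and Car2 values was not tested.

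Car13, a cytosolic enzyme, read 7.12 and 7.36 in FD fetuses and 7.13 and 7.50 in control fetuses, with log2 ratios of -0.01 and -0.13. This was within the spread between arrays.

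Mitochondrial Car5a fell in mothers and was not called in fetuses. It read 7.55 and 8.12 in FD mothers, against 9.19 and 9.18 in control mothers. The log2 ratios were -1.65 and -1.07, a 2.56-fold fall, and the 2 arrays were 0.58 apart, more than for the brightest probe of any other carbonic anhydrase measured in mothers. FD fetuses read 7.61 and 7.70, against 7.27 and 7.45 in control fetuses (log2 ratios 0.34 and 0.25). Mother minus fetus, the ratios differed by -1.99 and -1.31, a mean of -1.65. Other processings moved the maternal mean as low as -2.16 and kept the fetal mean between 0.29 and 0.49.

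The Car5a level in FD mothers was within the fetal range of 7.27 to 7.70 on array 1, at 7.55, and above it on array 2, at 8.12. That range takes in fetal channels of both dyes. FD mothers and control mothers are compared with it across dyes. In control mothers it was 3.54-fold above control fetuses. Among the 7 genes measured in mothers, Car5a was the called gene nearest to the threshold, and Car14 at -0.82 was the nearest one outside it. With the scanner software's ratios Car5a was at -2.16, Car8 at -1.95 and Car1, then called, at -1.04.

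Surface enzymes gave smaller values. Car14, a transmembrane enzyme known from hepatocyte membranes, read 10.17 and 10.14 in FD mothers, against 11.03 and 10.93 in control mothers. Its maternal log2 ratios of -0.86 and -0.79 (1.77-fold lower) stayed short of the 2-fold rule. In FD fetuses it read 9.55 and 9.66, against 9.09 and 9.25 in control fetuses, or 0.46 and 0.40 as log2 ratios. The maternal minus fetal differences of -1.32 and -1.19 met the rule.

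Car9, a transmembrane enzyme known as a target of hypoxia signalling, was dim everywhere. FD mothers read 7.37 and 7.45, against 7.85 and 7.65 in control mothers. FD fetuses read 7.16 and 7.14, against 7.26 and 7.20 in control fetuses. The mean log2 ratios of -0.34 and -0.08 were not called. Car4, which is held to the membrane by a lipid anchor, and transmembrane Car12 were not well above background in either tissue.

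Car8, the member without catalytic activity that is known to bind the inositol trisphosphate receptor, fell in mothers by both of its probes. Probe 1 read 8.93 and 8.85 in FD mothers, against 10.42 and 10.56 in control mothers. Its log2 ratios were -1.49 and -1.71, a 3.03-fold fall, and probe 2 gave -1.52 and -1.09, a 2.47-fold fall. In FD fetuses probe 1 read 8.49 and 8.45, against 8.17 and 8.47 in control fetuses. Fetal ratios were 0.31 and -0.02 for probe 1 and 0.02 and -0.04 for probe 2. Its maternal minus fetal differences at probe 1 were -1.80 and -1.69.

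Across the 7 genes measured in both tissues, 5 had a maternal ratio below the fetal one by the call rule: Car3, Car8, Car5a, Car14 and Car1. The rule called 2.98% of the 15590 genes with both ratios, 1.75% lower and 1.23% higher. The median difference of the 7 genes was -1.25, against -0.02 over all genes. At each gene's brightest probe, the mean difference was -1.77 for Car3, -1.75 for Car8 and -1.65 for Car5a. The second probes gave -2.86 for Car3 and -1.30 for Car8, and the 2 arrays of Car5a gave -1.99 and -1.31. The large maternal values of Car8 and Car5a stand beside fetal ratios near or above 0, whereas Car3 was called in both tissues.

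**Figure D3:**
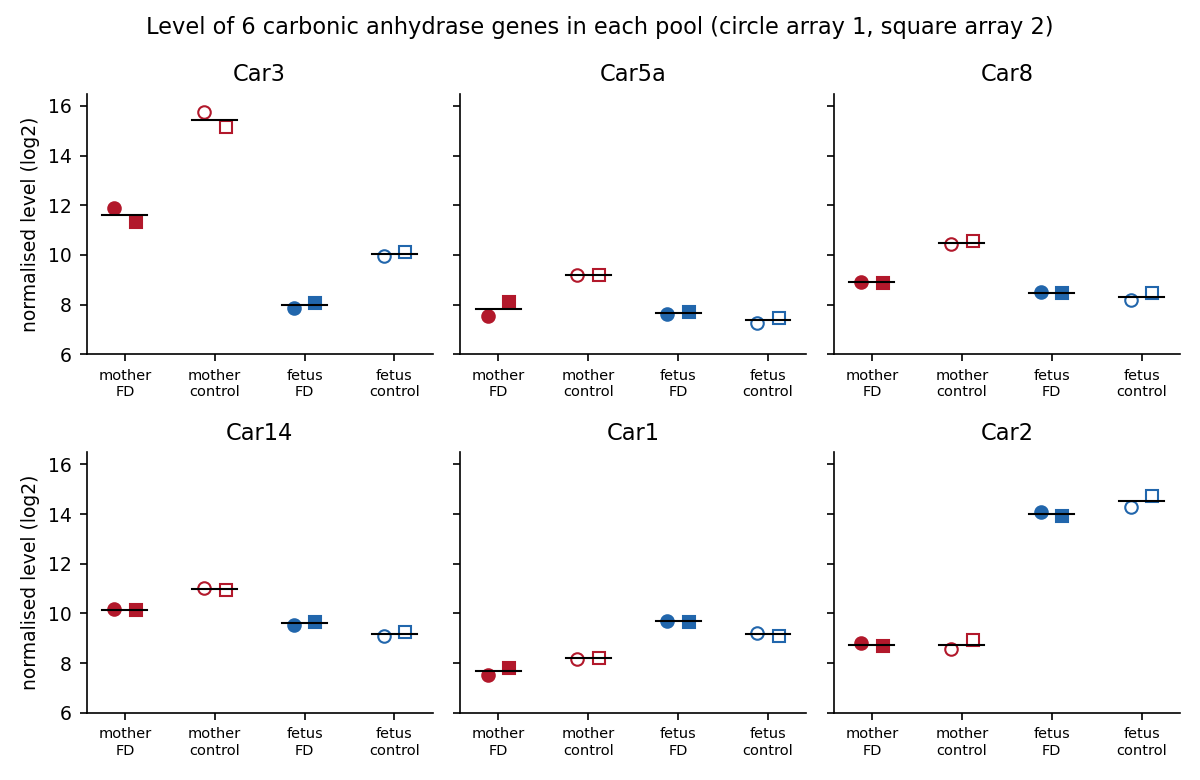
Each panel gives the normalised log2 level of 1 gene in FD and control mothers (red) and FD and control fetuses (blue), filled symbols for FD, circles for array 1, squares for array 2 and a line at the mean. Car3 stands highest in control mothers, at 15.74 and 15.16, and Car2 in the fetal pools, between 13.92 and 14.74.

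Between control pools, maternal and fetal liver differed strongly in the makeup of this family. Of the 8 genes measured, 4 were higher in control mothers and 1 was lower. The rule called 19.3% of 18081 genes here, 9.06% higher and 10.3% lower in control mothers, so calls are common in this contrast. Car3 was 42.6-fold higher by probe 1 and 14.3-fold higher by probe 2. Car8 was 4.49-fold higher by probe 1 and 4.03-fold by probe 2, Car5a 3.54-fold and Car14 3.50-fold.

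Car2 was 54.8-fold lower in control mothers than in control fetuses, with log2 differences of -5.72 and -5.83. Car1 was 1.94-fold lower (-1.04 and -0.87), just short of the rule. Car13 gave -0.49 and -0.85 and Car9 0.59 and 0.45, and neither was called. With processed signal minus its 75th percentile, the mean difference was -3.30 for Car13, in place of -0.67, and 1.14 for Car9, in place of 0.52, and both were called. Of 23 red cell markers measured, 22 were lower in control mothers with a median log2 difference of -3.34, and Slc4a1, the red cell anion exchanger, gave -7.81. The part of red cells in the Car2 and Car1 differences was not tested.

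The genes that differed between control pools are set beside their FD response here, and both values use the same control channels. Car3, Car8, Car5a and Car14 had control differences of 5.41, 2.17, 1.83 and 1.81 on the log2 scale, and maternal ratios of -3.85, -1.60, -1.36 and -0.82 in the same order. Car2, Car1 and Car9 had control differences of -5.78, -0.96 and 0.52, and maternal ratios of 0.00, -0.53 and -0.34. Since a high control value lowers the FD ratio and raises the control difference, no relation is computed.

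Promoters of 5 of the 10 genes were in the sequence table: Car4, Car5a, Car9, Car12 and Car14. Car5a is shown because it is the 1 of these that was called in mothers. The 250 bases before its annotated start lie at chr8:121944913-121945162 on the minus strand of GRCm38.p6 and are given from RefSeq, 5′ to 3′ on the strand of the gene, with the match to a searched motif in capitals.
Car5a: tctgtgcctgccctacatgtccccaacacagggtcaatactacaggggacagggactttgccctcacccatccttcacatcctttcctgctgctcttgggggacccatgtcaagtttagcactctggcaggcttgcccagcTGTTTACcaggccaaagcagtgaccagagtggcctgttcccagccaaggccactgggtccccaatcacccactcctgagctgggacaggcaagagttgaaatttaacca
The Car5a stretch holds 1 match to the forkhead letters TGTTTAC, 109 bases before the start, and 3.17% of 32851 promoters hold these letters on either strand. ACGTG was found once in Car14, 7 bases before its listed start, and once in Car9, 18 bases before its start, and 16.6% of promoters hold it. The 5 stretches were also searched on both strands for CACGTG, which contains ACGTG, and for TATAAA, TGACGTCA, TTCNNNGAA, the full glucocorticoid element and the full PPAR element, with no match. A match is only a description of the letters, and its relation to the FD response was not tested.

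Of the 6 further family genes on the list, Car5b, Car7 and Car11 were measured and none was called in either tissue. Car5b, the second mitochondrial enzyme, had mean log2 ratios of -0.21 in mothers and -0.09 in fetuses, against -1.36 and 0.29 for Car5a. Cytosolic Car7 had -0.82 in mothers and -0.18 in fetuses, and the acatalytic Car11 0.03 and -0.07. Car6, Car10 and Car15 were not measured in either tissue.

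Enzymes that use bicarbonate or fixed carbon dioxide, listed with the biotin enzymes Hlcs and Btd, were measured for 10 of 10 genes. None of the 10 was called in mothers or fetuses. Their median log2 ratio was 0.04 in mothers and 0.19 in fetuses. Cps1, the mitochondrial enzyme that starts the urea cycle with bicarbonate, had mean ratios of 0.90 in mothers and 0.97 in fetuses, just short of the rule. Pcx, pyruvate carboxylase, had 0.37 and 0.45 in the same order. So in mothers the ratios of both enzymes were above 0 on each array while that of Car5a was below 0 on each.

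The carboxylases of fat synthesis and breakdown were mixed. Acaca, the cytosolic acetyl-CoA carboxylase, had -0.32 in mothers and -0.79 in fetuses. Acacb, the mitochondrial membrane form, had 0.91 in mothers and -0.77 in fetuses, and this maternal minus fetal difference of 1.68 met the call rule. Pcca and Pccb, the subunits of propionyl-CoA carboxylase, had -0.47 and -0.05 in mothers and 0.32 and 0.09 in fetuses. Mccc1 and Mccc2, of leucine breakdown, had -0.75 and -0.23 in mothers and 0.14 and 0.33 in fetuses. Hlcs and Btd, which attach and recycle biotin, had 0.13 and 0.41 in mothers and 0.02 and 0.24 in fetuses.

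Bicarbonate and proton transporters were measured for 13 of 22 genes in mothers, where 2 fell, and for 15 in fetuses, where none was called. The maternal median was -0.02 and the fetal median 0.00. The 2 that fell were Slc9a3r1, a scaffold protein that binds the sodium-proton exchanger, at -1.35, and Slc4a9, a member of the bicarbonate transporter family, at -1.01.

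**Figure D4:**
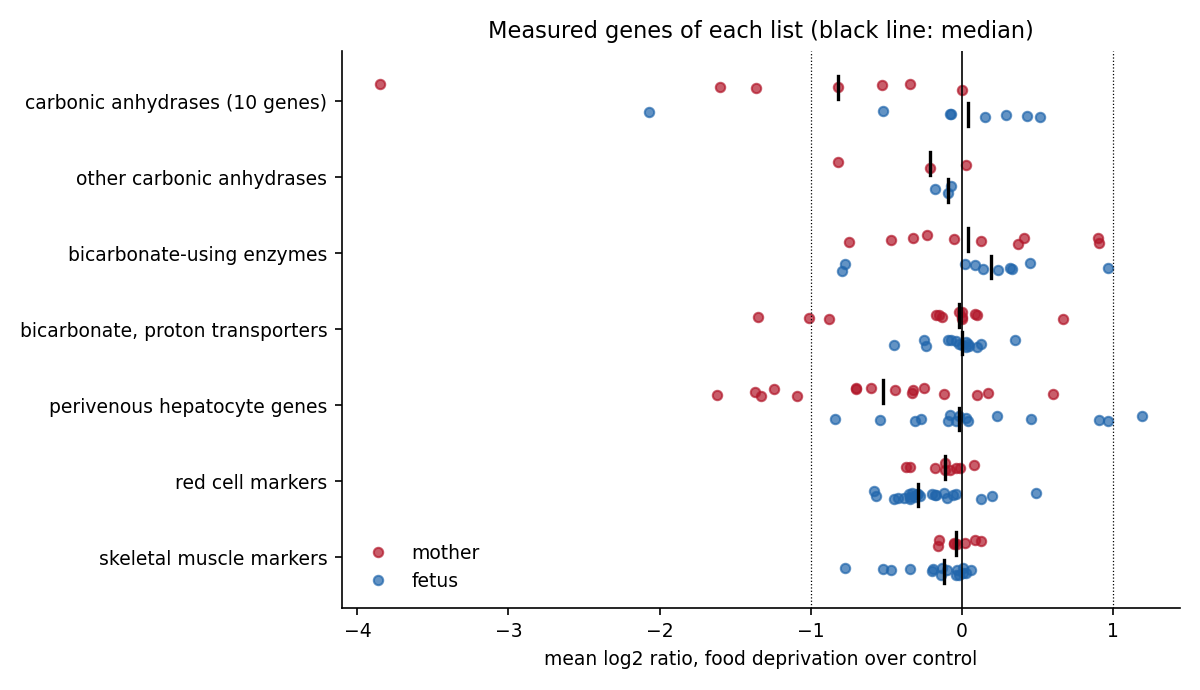
The plot gives the mean log2 ratio of food deprivation over control of each measured gene by list, red for mothers above blue for fetuses, with a black line at the median and dotted lines at a 2-fold change. The maternal carbonic anhydrases have a median of -0.82, against 0.04 for the bicarbonate-using enzymes and -0.02 for the transporters. The list of bicarbonate-using enzymes also holds the biotin enzymes Hlcs and Btd.

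Car3 is known in rat liver from the hepatocytes around the central vein, and genes of that zone were listed for this reason. In mothers 16 of 16 were measured and 5 fell, with a median log2 ratio of -0.52. Over all measured maternal genes, 1.88% were called lower and the median was -0.01. The 5 were Rgn, a calcium-binding protein (-1.62), Aldh1b1, a mitochondrial aldehyde dehydrogenase (-1.37), Cyp1a2, a drug-metabolising P450 (-1.33), Lect2, a secreted liver protein (-1.24), and Ahr, the aryl hydrocarbon receptor (-1.09). Mean ratios of the 16 ran from -1.62 to 0.60, with 13 below 0 and 3 above. The 3 above 0 were Oat (0.60), Cyp2e1 (0.17) and Slc1a2 (0.10), and Glul, at -0.33, was not called. In fetuses 15 were measured, none fell, and Cyp2e1, an ethanol-oxidising P450, rose at 1.19. The fetal median was -0.02. The part of these genes in the Car3 value was not tested.

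Genes with male-biased expression that depends on growth hormone in mouse liver were measured for 14 of 20 in each tissue. In mothers 5 fell: Slco1a1, a bile salt and organic anion transporter (-1.35), Cyp7b1, an oxysterol hydroxylase (-1.19), C8a, a complement component (-1.19), Mup3, a major urinary protein (-1.13), and Selenbp2, a selenium-binding protein (-1.05). Cyp4a12a, a fatty acid hydroxylase, rose at 2.71, and the maternal median was -0.31. Cyp4a12a also rose in fetuses, at 1.29, with none lower and a median of 0.04. Near-identical copies exist for Mup3 and Cyp4a12a, so their probes may read several genes.

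Car3 is abundant in fat and in skeletal muscle as well, and markers of both were examined. In mothers 8 of 21 muscle markers were measured, none was called and the median was -0.04. Their summed level was 1350 to 1370 in FD mothers and 1320 to 1410 in control mothers, and Ckm and Mb were not above background on any maternal array. Acta1 was above background on 1 control array of mothers. Myh4 was so by 1 probe, on 1 array of each maternal condition. In fetuses 16 were measured and none was called, with sums of 3670 to 4030 under FD and 4270 to 4660 in controls. Of these, 12 had a mean log2 ratio below 0, the median was -0.12 and the values ran from -0.77 to 0.06. The lowest were Myh3, at -0.81 and -0.72, and Myh8, at -0.52 on both arrays, and 4 of the 16 had a mean above 0. Ckm gave 0.07 and -0.04 and Acta1 -0.03 and -0.18 there. The part of muscle in the fetal Car3 value was not tested.

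The fat cell markers Adipoq, Lep, Cfd, Retn and Plin1 were not above background on any array of either tissue. Other genes of that list were measured in mothers for 6 of 14, and 3 of them rose: Cidec, a lipid droplet protein (5.96), Pnpla2, the adipose triglyceride lipase (1.82), and Cidea, also of lipid droplets (1.59). Their summed level was 28900 to 30400 in FD mothers and 4720 to 5510 in control mothers, and the mean log2 ratios of the list ran from -0.80 to 5.96. The part of these genes in the Car3 value was not tested. In fetuses 7 were measured and none was called, with sums of 21900 to 25500 under FD and 21900 to 22400 in controls.

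The labelled tissue carried its hepatocyte markers, with Alb well above background on every array. In mothers 15 of 17 were measured and 1 fell, Ttr, the thyroid hormone carrier (-1.83), with a median of 0.04. In fetuses 16 were measured, and Tat, tyrosine aminotransferase (2.00), Cyp2e1 (1.19) and Apob, an apolipoprotein (1.03), rose. Bile duct markers were measured for 9 of 12 in mothers and 10 in fetuses, and none was called.

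The fetal pools also differed in a sex-linked gene. Xist, which is transcribed from the inactive X chromosome of females, was above background with all 4 of its probes on 2 of 2 control fetus channels and on 0 of 2 FD fetus channels. It was above background in both maternal groups. The Y-linked genes Ddx3y, Eif2s3y, Kdm5d and Uty were measured in fetuses and none was called. Their log2 ratios were above 0 on both arrays, at 0.57 and 0.24 for Ddx3y, 0.56 and 0.19 for Eif2s3y, 0.03 and 0.02 for Kdm5d and 0.13 and 0.05 for Uty. Fetal Xist log2 ratios were -3.58 and -2.62 at its brightest probe and -0.28 and -0.23 at the probe that changed least. All fetal ratios and mother minus fetus differences, including those of Car3, thus involve fetal pools that differ in Xist. Between control pools, mother over fetus, Xist differed by 2.34, Ddx3y by -2.80, Eif2s3y by -3.77 and Kdm5d by -1.02, all called, and Uty by -0.29, not called. The part of these differences in the carbonic anhydrase values was not tested.

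The genes whose 4 log2 ratios lay nearest to those of Car3, by Euclidean distance over the 2 maternal and 2 fetal arrays among 12173 genes, were Idi1, Akr1c6, Srebf1, Aqp8 and Msmo1. Idi1, the isopentenyl diphosphate isomerase, was nearest at a distance of 1.73, with mean ratios of -2.99 in mothers and -1.21 in fetuses. Akr1c6, an aldo-keto reductase of steroids, had -2.44 and -1.99. Srebf1, a transcription factor of lipid synthesis genes, had -2.69 and -1.14. Aqp8, a water channel, had -2.76 and -1.01, and Msmo1 had -2.87 and -0.84. Each of these maternal values was smaller in size than the -3.85 of Car3, which was the lowest of all measured maternal genes. That follows from the choice of Car3 and is only a description.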

How the data were processed

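Total RNA of pooled livers was hybridised on 4 2-colour Agilent arrays of 1 slide. The deposited scanner files hold linear intensity values of spots and local background and the software's log10 ratio of red over green, made after its own background subtraction and dye normalisation, as the file headers record. They name Feature Extraction 9.5.1.1 and build mm7, and the submitters' processing notes name Agilent Feature Extraction 9.5.3.1. A deposited series table of red over green matched the scanner values with a correlation of at least 0.9999 in size, but its sign follows the dye orientation (column medians -0.92, 0.94, -0.88 and 0.88), and what the sign means stays unknown.

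With R 4.3.3 and limma 3.58.1, intensities were corrected by normexp (offset 50) and normalised by loess within arrays with control spots at weight 0. Array 1 of each comparison had FD in Cy5, and array 2 was turned. Outlier spots were left out (215 to 257 gene spots per array), and spots of a probe were averaged. Levels come from Aquantile between arrays, and mothers and fetuses of the same condition are compared within a dye. FD mothers against control fetuses were compared by means over both arrays, and so over both dyes. The number of arrays limits the precision. A gene stands at its brightest measured probe.

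Names came from RefSeq accessions for 22951 of 41174 probes and otherwise from the file, and 12 of the 13 carbonic anhydrase probes were named by accession. The second Car3 probe kept the file's name. The genes and lists were chosen with earlier results of these data known. All 10 genes are named. Of the family list and the bicarbonate-using enzymes every measured gene is named, of other lists the called and defining genes, and the 5 genes nearest to Car3. Alternatives were median centring, the scanner's ratios, the series table, offset 0, no background subtraction, resetting stained local background, averaging over probes, other filters on dim probes and each array alone.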

Additional observations from a re-analysis of the deposited data

Results flagged for a closer look

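For 3 carbonic anhydrases, both maternal arrays lay below 0 and both fetal arrays above 0. How many of all measured genes share this sign pattern was not counted, so the 3 are a description. Mother minus fetus, the mean log2 ratios differed by -1.65 for Car5a, by -1.25 for Car14 and by -1.05 for Car1. With median centring the signs were no longer the same on both arrays for Car14 (0.37 on maternal array 1 and -0.04 on fetal array 2) and for Car1 (0.01 on maternal array 1). These differences were not tested, because each condition is 1 pool. None of the 3 fetal values and, among the maternal values, only that of Car5a reached 2-fold.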

How the results depend on the processing

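Both Car3 ratios kept their direction and call under all alternatives. The fetal mean of -2.07 became -1.90 with median centring, -2.51 with the scanner software's ratios and with the series table, -2.32 with an offset of 0 and -1.40 as the mean over probes. Mother minus fetus, -1.77 became -1.99, -1.40, -1.42, -1.55 and -2.31 in the order median centring, scanner ratios, series table, offset 0 and mean over probes. With median centring, which does not model brightness, the maternal arrays gave -2.26 and -5.53 for Car3 and -0.38 and -2.84 for Car8, and Car8 lost its call. All genes called in mothers numbered 555 (45.4% higher), against 127 with median centring (35.4% higher), 1471 with scanner ratios and 1475 with the series table. In fetuses they numbered 132 (63.6% higher), against 91 with median centring (74.7% higher), 406 with scanner ratios and 407 with the series table. With processed signal minus its 75th percentile, 8 genes in place of 5 were called between control pools, adding Car1 and Car13 lower and Car9 higher in control mothers. The causes of these changes were not tested. With 1 array alone, Car3 ranged from -3.85 to -3.84 in mothers, from -2.11 to -2.04 in fetuses and from -1.81 to -1.74 as their difference. Calls over all genes then ranged from 496 to 681 in mothers and from 135 to 158 in fetuses, and those of the 10 genes stayed at 3 in mothers and 1 in fetuses and were 5 to 6 between control pools. Mother minus fetus, Car1 lost its call on array 2 alone, at -0.96. No paired analysis was possible because the replicate number goes with the dye orientation and the arrays of a comparison are 1 replicate. Dim probes such as Car9 and the second Car3 probe limit what can be seen in fetuses.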
